A study of Mus musculus with 8 samples.

Results

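The mouse Hox genes sit in 4 clusters, and 38 of them were taken as members by name: 10 Hoxa genes (Hoxa2 to Hoxa7, Hoxa9 to Hoxa11 and Hoxa13), 10 Hoxb genes (Hoxb1 to Hoxb9 and Hoxb13), 9 Hoxc genes (Hoxc4 to Hoxc6 and Hoxc8 to Hoxc13) and 9 Hoxd genes (Hoxd1, Hoxd3, Hoxd4 and Hoxd8 to Hoxd13). The members were read through the mm9 range of each cluster, because no gene annotation of that build was used here and reads could not be assigned to single genes. The ranges were chr6:52100001-52200000 for Hoxa, chr11:96000001-96200000 for Hoxb, chr15:102700001-102900000 for Hoxc and chr2:74500001-74600000 for Hoxd, each rounded to 0.1 Mb, so a gene at the end of a cluster may lie just outside. They held 120 of the 456571 windows of 5 kb that were tested on the 19 autosomes and X. The Hoxb and Hoxc ranges were 200 kb each, longer than the member spans given below for another build, and so also held other sequence.

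The study used ChIP-seq, in which crosslinked chromatin is sheared, pulled down with an antibody and sequenced, to ask where the proteins PHF20 and Wdr5 bind in cells of the embryonic stem cell lineage. It comprised 8 libraries, 2 for each of PHF20, Wdr5, Pol II (the polymerase that transcribes protein-coding genes) and a control. All came from C57BL/6 cells labelled as ES-derived neural progenitors, whereas the series title and design speak of embryonic stem cells and the culture protocol describes stem cell medium on feeder cells. The labels do not say what the control was made of, and the protocols mention both input DNA and IgG. Replicates are separate libraries, and no label ties them to different cultures, so the spread between libraries may be technical. The p-values below rest on that spread, pooled in part across windows or bins of the genome.

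Hox genes encode homeodomain transcription factors that give cells their position along the body axis, and within a cluster their order on the chromosome follows the order in which they are switched on. In stem cells the clusters are largely silent under Polycomb repression, while Trithorax-type complexes, which methylate histone H3 at promoters, keep them active in tissues that use them. Wdr5 is a core subunit of those methyltransferase complexes, and PHF20 is a chromatin reader found with the MOF acetyltransferase.

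The clusters are short and gene-dense. In the RefSeq annotation of another build, GRCm38.p6, the members spanned 98.5 kb of Hoxa, 173.9 kb of Hoxb, 115.7 kb of Hoxc and 96.9 kb of Hoxd, with no other protein-coding locus between them. Long non-coding RNA loci lay between or over them, 9 in Hoxa, 6 in Hoxb, 4 in Hoxc and 4 in Hoxd. There were also 6 microRNA loci, and the mature products of 5 of them are shown to illustrate how the clusters resemble each other. Each line gives the locus and its neighbours, and the seed (bases 2 to 8), the stretch that pairs with targets, is in capitals.

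Mir10a, within Hoxb3: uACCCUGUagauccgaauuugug
Mir10b, within Hoxd3 and Hoxd4: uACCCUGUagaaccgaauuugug
Mir196a-1, between Hoxb13 and Hoxb9: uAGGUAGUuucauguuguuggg
Mir196a-2, between Hoxc10 and Hoxc9: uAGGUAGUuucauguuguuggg
Mir196b, between Hoxa9 and Hoxa10: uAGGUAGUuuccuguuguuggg

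The Hoxb and Hoxd copies of miR-10 share the seed ACCCUGU, and the Hoxa, Hoxb and Hoxc copies of miR-196 share AGGUAGU. The mm9 windows described below may therefore hold microRNA loci as well as Hox genes, although no position was carried between builds.

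RefSeq gave promoter sequence for 22 of the 38 members, 24 promoters in all. These members were 9 in Hoxa, 9 in Hoxd, 3 in Hoxb and 1 in Hoxc, so the values below describe mainly Hoxa and Hoxd. The 250 bases before the start site held a median of 12.5 CpG (2 to 35), against 6 over all 32841 promoters in the table. An observed over expected CpG ratio above 0.6 with a GC content above 50% was found in 11 of 24 (45.8%) Hox promoters and in 30.8% of all promoters. The motif TATAAA, read on either strand, occurred in 4 of 24 (16.7%) and in 12.4% of all promoters of that length. These are descriptions of the sequence, and the reads were not counted at these positions. The promoters with the most and the fewest CpG are printed 5′ to 3′ to show that range, with each CpG in capitals.

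Hoxa13, chr6:52260881-52261130, minus strand, GRCm38.p6: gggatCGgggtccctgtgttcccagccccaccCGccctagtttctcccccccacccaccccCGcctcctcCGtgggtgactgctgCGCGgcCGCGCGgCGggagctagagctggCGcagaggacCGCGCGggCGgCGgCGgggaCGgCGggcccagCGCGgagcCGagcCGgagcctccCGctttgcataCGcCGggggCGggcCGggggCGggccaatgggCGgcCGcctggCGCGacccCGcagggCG
Hoxd11, chr2:74679308-74679557, plus strand, GRCm38.p6: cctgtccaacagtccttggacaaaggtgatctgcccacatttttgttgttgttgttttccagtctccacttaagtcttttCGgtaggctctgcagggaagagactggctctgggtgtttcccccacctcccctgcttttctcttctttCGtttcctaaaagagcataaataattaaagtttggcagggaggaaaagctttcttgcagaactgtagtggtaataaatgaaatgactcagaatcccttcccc

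Hoxa13, which patterns the end of the limb and the hindgut, had 35 CpG in this stretch and a GC content of 80.0%. Hoxd11, which acts in the forearm and kidney, had 2 CpG and 44.8% GC at this start site, while a second listed start site of the gene had 20.

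Each library held between 2909981 and 5474884 deposited reads, of which 2260567 to 4600398 remained on the autosomes and X once reads with the same start were counted once. The libraries differed in how uneven they were along the genome. Over 25549 bins of 100 kb, the SD of the log2 ratio of a bin to its own flanks was 0.23 in control replicate 1, 0.26 in PHF20 replicate 2 and 0.28 in Wdr5 replicate 1, while it lay between 0.35 and 0.37 in PHF20 replicate 1, both Pol II libraries and control replicate 2 and was 0.43 in Wdr5 replicate 2. Control replicate 1 was also the deepest library, and what depth contributed to these differences was not tested. The 2 controls thus differed more from each other in this measure than control replicate 2 did from any ChIP library, and results that rest on control replicate 1 are given with and without it.

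Read density was higher over the Hoxa and Hoxd clusters than beside them in 7 of 8 libraries, control replicate 2 among them, and lay near the level of the surroundings over Hoxb and Hoxc. The measure was the density of the cluster over that of 500 kb on either side in the same library, with an exact (Clopper-Pearson) 95% interval that covers counting error only. At Hoxd the ratio was 0.828 and 1.27 in the controls, 1.35 and 1.26 with PHF20, 1.15 and 1.77 with Wdr5 and 1.45 and 1.35 with Pol II. Those ratios rested on 108 to 177 reads in the cluster, and the interval lay wholly above 1 in 6 libraries. In control replicate 1 it ran from 0.698 to 0.976, below 1. Hoxd was therefore the cluster with the highest median ratio, 1.31, and also the one whose controls lay furthest apart.

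Hoxa followed with a median ratio of 1.23. Its ratios were 0.934 and 1.21 in the controls, 1.43 and 1.28 with PHF20, 1.06 and 1.56 with Wdr5 and 1.15 and 1.25 with Pol II, from 133 to 207 reads. The interval lay above 1 in 5 libraries and below 1 in none. At both clusters the lowest ratio belonged to control replicate 1 and the highest to Wdr5 replicate 2, which were also the libraries with the least and the most uneven bins genome-wide. The part of that unevenness in the ratios was not tested.

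**Figure D1:**
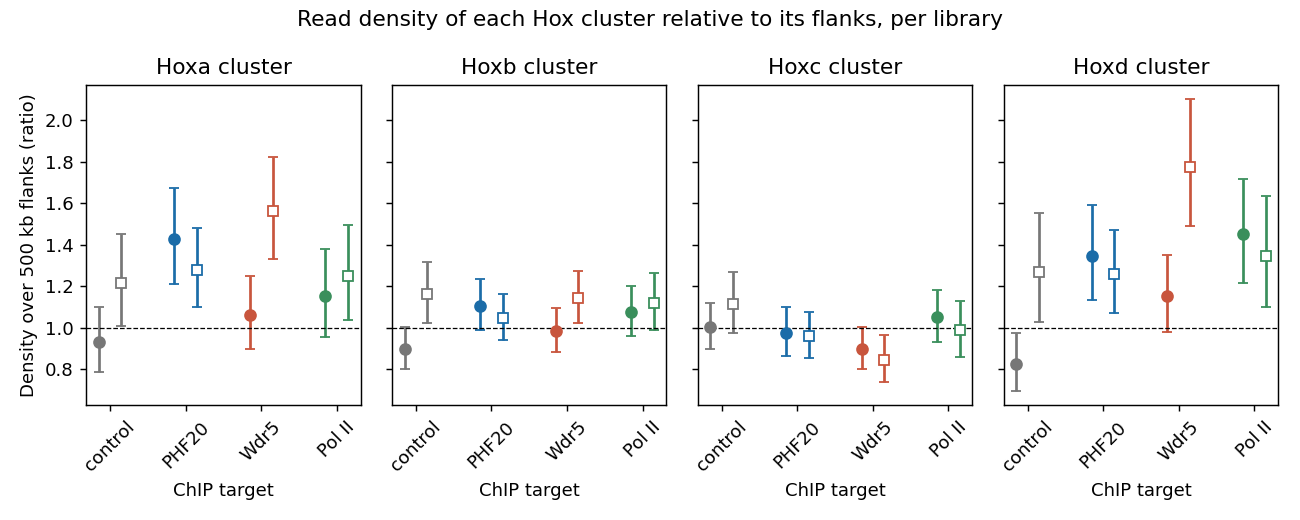
Density of each Hox cluster divided by the density of its 500 kb flanks (ratio, no unit), per library, with 95% exact counting intervals; filled circles are replicate 1, open squares replicate 2, and the dashed line marks 1. Control replicate 1 is the lowest point at Hoxa, Hoxb and Hoxd, and Wdr5 replicate 2 is the highest at Hoxa and Hoxd and the lowest at Hoxc.

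The Hoxb range was dense in absolute terms but hardly denser than its flanks. It held 310 to 420 reads per library and a median of 68.5 CPM (reads scaled to library size) per 100 kb, against 57.9 at Hoxa, 53.4 at Hoxc and 49.9 at Hoxd. Control ratios of 0.900 and 1.16 stood beside 1.11 and 1.05 with PHF20, 0.985 and 1.14 with Wdr5 and 1.07 and 1.12 with Pol II, and the median was 1.09. The interval excluded 1 only in control replicate 2 and Wdr5 replicate 2. No Hoxb gene was located on mm9, and the hindbrain gene Hoxb1, at the end of the cluster, may lie outside this range.

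Hoxc, whose genes act in the trunk and hind limb, was not denser than its flanks, with a median ratio of 0.983. Its range of 200 kb was longer than the member span of 115.7 kb in GRCm38.p6. What the other sequence added to the ratio was not tested. The controls gave 1.00 and 1.11, PHF20 gave 0.977 and 0.961, Wdr5 gave 0.899 and 0.846 and Pol II gave 1.05 and 0.988, from 259 to 393 reads. The only interval off 1 was that of Wdr5 replicate 2, from 0.740 to 0.964. Hoxc was the one cluster at which both Wdr5 libraries and both PHF20 libraries lay below both controls.

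Group means showed that the spread between replicates was as large as most differences from control. At Hoxd the ratio averaged 1.05 ± 0.311 (SD, n = 2) in control, 1.30 ± 0.0626 with PHF20, 1.46 ± 0.438 with Wdr5 and 1.40 ± 0.0738 with Pol II. The Hoxa means were 1.07 ± 0.198, 1.35 ± 0.104, 1.31 ± 0.354 and 1.20 ± 0.0698 in the same order. Hoxb gave 1.03 ± 0.185, 1.08 ± 0.0411, 1.06 ± 0.113 and 1.10 ± 0.0318. Hoxc gave 1.06 ± 0.0770, 0.969 ± 0.0115, 0.872 ± 0.0372 and 1.02 ± 0.0449. Both PHF20 libraries exceeded both controls at Hoxa, 1 of the 6 bins of 100 kb in the clusters (all bins 12.9%), and both Pol II libraries did so at Hoxd, again 1 of 6 (all bins 15.6%). Wdr5 and control overlapped at both, and 0 of 6 bins had both Wdr5 libraries higher (all bins 13.5%). Although both PHF20 and both Wdr5 libraries lay below both controls over the whole Hoxc range, no single Hox bin had both libraries of a ChIP group below both controls (all bins: PHF20 12.9%, Wdr5 14.6%, Pol II 16.6%). With 2 libraries against 2, an exact two-sided permutation test cannot reach 0.05, so none was run on these ratios, and the fit across all bins of 100 kb is given below.

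Bins denser than their flanks in nearly all libraries were common in the genome. Of the 6 bins of 100 kb that make up the clusters, 2 (Hoxa and Hoxd) lay above their flanks in at least 7 of 8 libraries, as did 20.3% of the 25549 bins with complete flanks. The Hoxb bins did so in 5 libraries each and the Hoxc bins in 2 and 5. None of the 6 did so in all 8 libraries, against 7.03% of all bins. Ranked among all bins of its library, the Hoxd ratio stood at percentile 5.87 and 89.3 in the controls, 94.3 and 95.6 with PHF20, 85.2 and 98.9 with Wdr5 and 97.4 and 93.3 with Pol II. Hoxa stood at percentile 26.8 and 85.0 in the controls and between 67.7 and 96.9 in the ChIP libraries. Both clusters were thus in the upper part of the range in 7 libraries.

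The higher density at Hoxd was flanked by troughs on both sides. In 50 kb steps, the density over the part of the cluster at chr2:74500001-74550000 was 33.0 and 49.5 CPM per 100 kb in the controls, and 49.0 to 64.2 in the 6 ChIP libraries. The step at chr2:74650001-74700000 read 21.2 in control replicate 2 and between 13.1 and 29.3 in the ChIP libraries, but 44.8 in control replicate 1. On the other side, chr2:74350001-74400000 read 42.2 in control replicate 1 and 20.6 to 24.8 in all the other libraries. Both troughs were picked out after the profile had been seen. Control replicate 2 thus had both troughs and control replicate 1 had neither. Outside the cluster, chr2:74250001-74300000 read 39.1 and 51.3 in the controls and 52.9 and 55.9 with PHF20. It read 53.2 and 47.9 with Wdr5 and 57.0 and 44.7 with Pol II, so it was as dense as the cluster in some libraries.

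**Figure D2:**
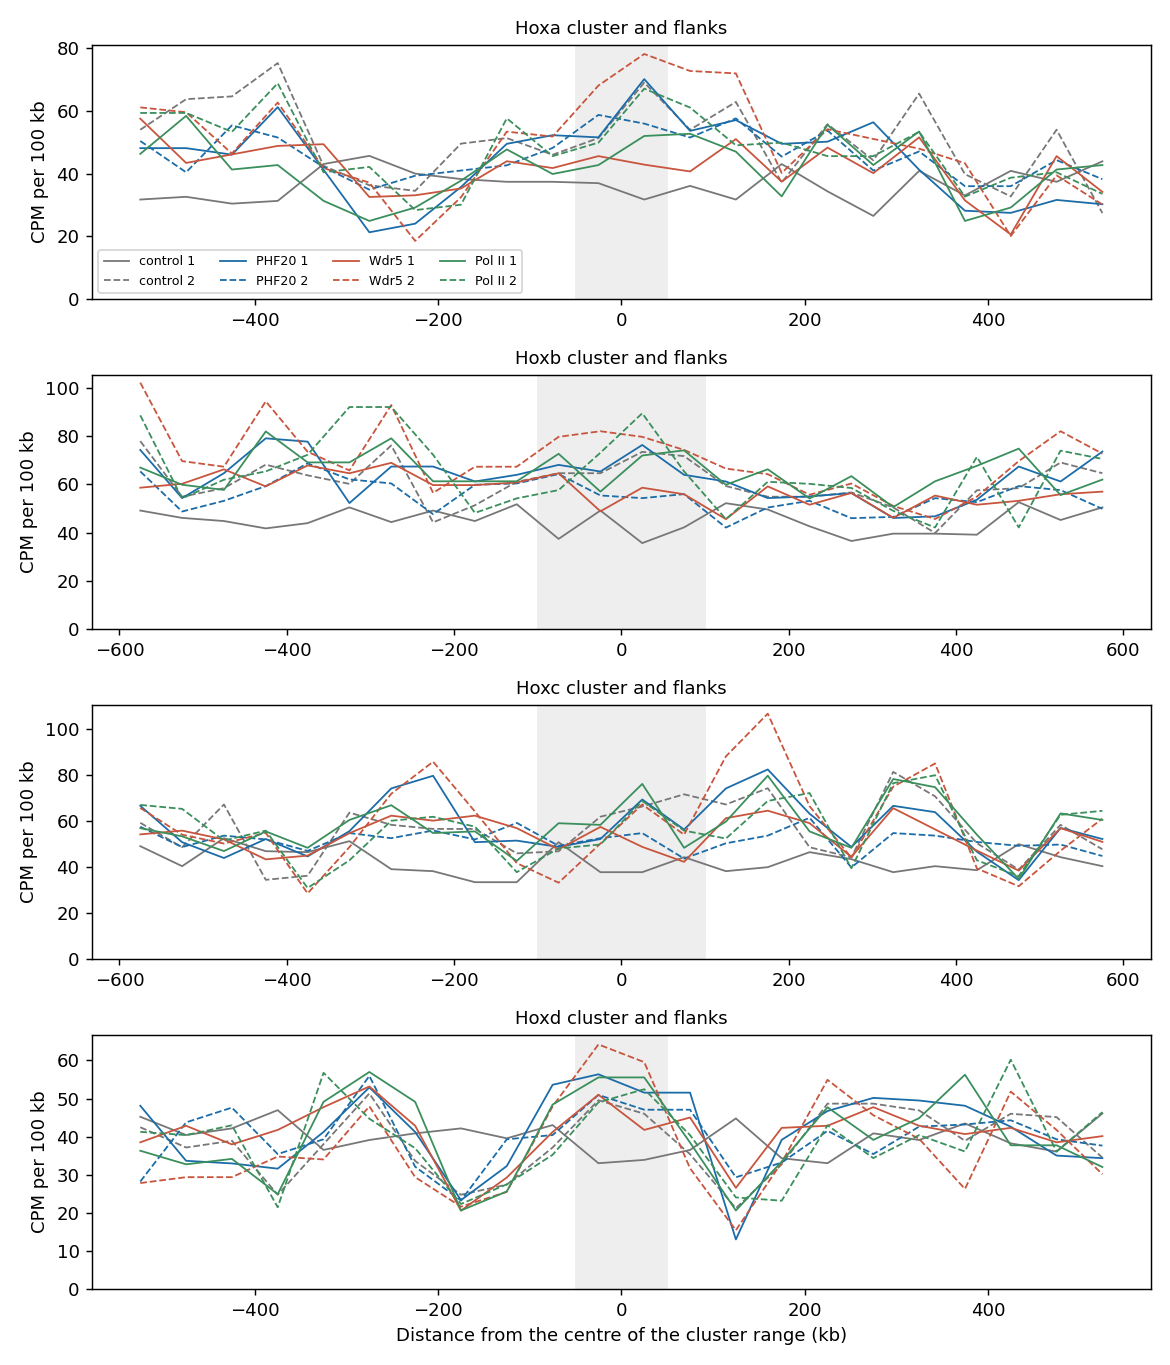
Read density in CPM per 100 kb for 50 kb steps (vertical axis) against distance in kb from the centre of each cluster range (horizontal axis); solid lines are replicate 1, dashed lines replicate 2, and grey marks the cluster. Control replicate 1 (solid grey) runs nearly flat, while the other 7 libraries rise over Hoxd, between troughs at -175 and 125 kb, and have no step of that kind at Hoxb. In some libraries the step at -275 kb from Hoxd is as dense as the cluster.

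In the 50 kb outline, Hoxa stood out from its surroundings in some libraries only. The step at chr6:52150001-52200000 read 31.7 and 69.0 CPM per 100 kb in the controls, 70.1 and 55.9 with PHF20, 42.9 and 78.1 with Wdr5 and 52.0 and 67.1 with Pol II. Beyond it, the 2 steps up to chr6:52300000 stayed between 40.7 and 72.7 in all libraries but control replicate 1, which read 36.1 and 31.7. A cluster step was the densest of the outline in PHF20 replicate 1 (70.1), PHF20 replicate 2 (58.7, at chr6:52100001-52150000) and Wdr5 replicate 2 (78.1). In the other libraries a step outside the cluster was denser, such as chr6:51750001-51800000 with 75.2 in control replicate 2. The outline thus did not single out the cluster in every library.

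No difference between a ChIP group and control passed the test over the clusters. In limma-trend on 25648 bins of 100 kb, 0 of the 6 Hox bins had an adjusted p under 0.05 in any comparison, and 0% of all bins were called in each of the 3 comparisons. At an unadjusted p under 0.05 none of the 6 Hox bins passed either, against 0.168%, 1.32% and 1.55% of all bins, and voom called none. An exception arose without control replicate 2, which leaves control replicate 1 alone. The Hoxb bin chr11:96100001-96200000 was then called for Wdr5 (log2 fold change 0.76) and Pol II (0.94), as were bins across the genome. Without control replicate 1 the same bin stood at -0.13 and 0.05. For the ratio to flanks over 25549 bins, with both controls, 0 Hox bins and 0% of all bins were called. There 0 Hox bins passed an unadjusted 0.05 (1.99%, 3.76% and 4.92% of all bins). The 3 comparisons share the same 2 control libraries, so their values are given side by side and not set against each other.

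Of the 6 Hox bins, the Hoxd bin gave the largest difference over flanks in each comparison. Its log2 fold change over flanks was 0.34 with PHF20, 0.47 (unadjusted p 0.0632, adjusted p 0.935) with Wdr5 and 0.44 with Pol II, each with an SE of 0.23. Without control replicate 1 these became 0.04, 0.17 and 0.14, and without control replicate 2 they became 0.64, 0.78 and 0.74 (adjusted p 0.589, 0.244 and 0.220). Hoxa gave 0.34, 0.27 and 0.17 (SE 0.21), which became 0.15, 0.08 and -0.02 without control replicate 1 and 0.53, 0.46 and 0.36 without control replicate 2. The size of each difference thus moved with which control was used, and none passed the adjusted test either way.

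The Hoxb and Hoxc bins gave values of either sign over flanks. For the 2 Hoxb bins PHF20 stood at 0.08 and 0.05, Wdr5 at 0.07 and 0.04 and Pol II at -0.03 and 0.19 (SE 0.17 and 0.19). The Hoxc bins had PHF20 values of -0.13 and -0.10, Wdr5 values of -0.29 and -0.23 and Pol II values of -0.08 and 0.02 (SE 0.19). These values, too, moved with the control used. At chr11:96100001-96200000 in Hoxb, PHF20, Wdr5 and Pol II stood at -0.21, -0.22 and -0.06 without control replicate 1 and at 0.30, 0.29 and 0.45 without control replicate 2. The other Hoxb bin stood at 0.00, -0.02 and -0.11 without control replicate 1 and at 0.16, 0.15 and 0.05 without control replicate 2. The 2 Wdr5 values at Hoxc were -0.22 and -0.41 without control replicate 1 and -0.35 and -0.05 without control replicate 2. The signs at Hoxb therefore depended on 1 control library, while Wdr5 at Hoxc was below control in both bins with either, and no value passed the test.

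At 5 kb, the scale of 1 or a few Hox genes, the counts were small and no window passed the test. The 120 windows, all past the filter of a mean of 3 reads, held 0 to 22 reads per library. In limma-trend, 0 of 120 had an adjusted p under 0.05 for PHF20 (0.000219% of all 456571 windows were called), 0 of 120 for Wdr5 (0%) and 0 of 120 for Pol II (0.000876%), and the lowest adjusted p was 1.00, 0.994 and 0.756. At an unadjusted p under 0.05 there were 2 (all windows 3.06%), 4 (4.73%) and 9 (5.75%) Hox windows, of which 2, 3 and 8 were higher than control. With voom, 0 were called in each comparison (all windows 0.000219%, 0.00701% and 0.00482%), and 5 (all windows 3.65%), 7 (4.79%) and 11 (4.91%) had an unadjusted p under 0.05.

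The Hox windows nonetheless lay on the higher side of control as a group. Their median log2 fold change was 0.15 (PHF20), 0.18 (Wdr5) and 0.22 (Pol II), against 0.03, -0.01 and 0.00 over all windows. Without control replicate 1 the medians were -0.06, -0.08 and 0.01, and without control replicate 2 they were 0.47, 0.46 and 0.50. The shift to the higher side was thus not seen against control replicate 2 alone. By cluster, the medians for PHF20, Wdr5 and Pol II were 0.42, 0.34 and 0.19 in Hoxa, 0.16, 0.27 and 0.26 in Hoxb, 0.09, 0.00 and 0.18 in Hoxc and 0.34, 0.33 and 0.32 in Hoxd. These cluster medians were taken with both controls, and were not computed with either control left out.

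**Figure D3:**
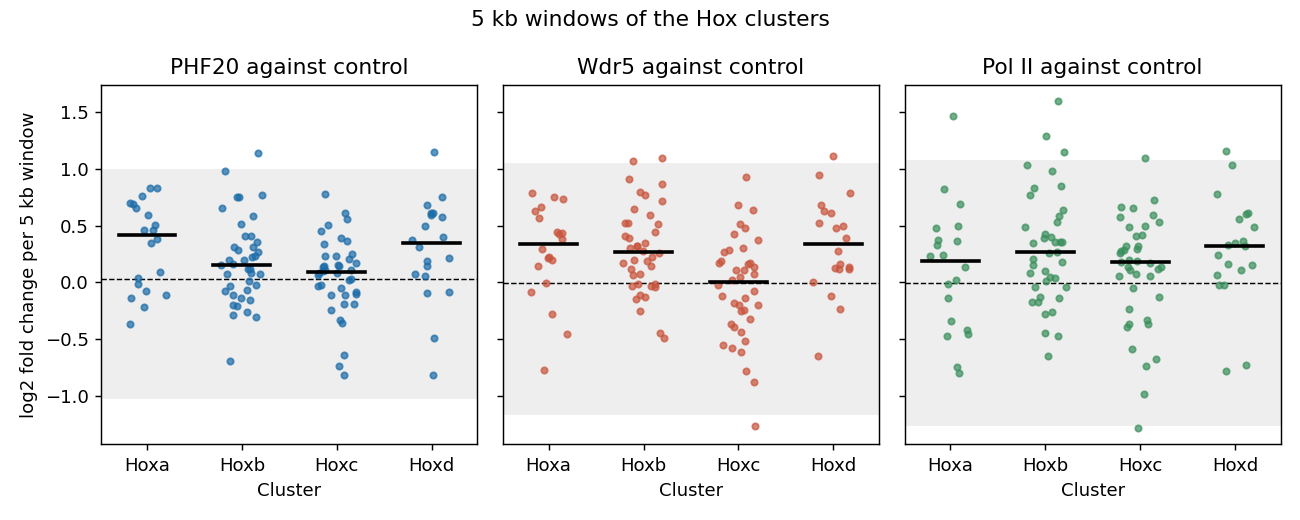
The log2 fold change of each 5 kb window in the 4 clusters (points; 20 in Hoxa, 40 in Hoxb, 40 in Hoxc, 20 in Hoxd) for each ChIP target against control, with cluster medians as black bars; grey spans the central 95% of all 456571 windows and the dashed line is their median. Most points lie inside the grey band. The medians, with both controls in the fit, run from 0.00 for Wdr5 in Hoxc to 0.42 for PHF20 in Hoxa.

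Windows in which both ChIP libraries lay outside both controls were counted as well. Both PHF20 libraries were higher than both controls in 28 of 120 Hox windows (23.3%, all windows 15.3%), both Wdr5 libraries in 30 (25%, all windows 14.8%) and both Pol II libraries in 27 (22.5%, all windows 15.2%). Lower than both controls were 8 (6.67%, all windows 13.5%), 7 (5.83%, all windows 15.7%) and 8 (6.67%, all windows 18.1%). Against control replicate 2 alone, the higher counts were 39 (32.5%, all windows 36.1%), 42 (35%, all windows 31.6%) and 30 (25%, all windows 31.1%), so the surplus of higher windows seen against both controls was not present for PHF20 and Pol II. Higher than all the other 6 libraries were 3 windows for PHF20 (2.5%, all windows 2.64%), 3 for Wdr5 (2.5%, all windows 2.41%) and 9 for Pol II (7.5%, all windows 3.45%). Lower than control replicate 2 were 50 (41.7%, all windows 32.7%), 38 (31.7%, all windows 32.4%) and 40 (33.3%, all windows 34.9%), and lower than all the other 6 were 4 (3.33%, all windows 2.09%), 3 (2.5%, all windows 2.93%) and 4 (3.33%, all windows 3.7%).

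Within Hoxb, 1 window was among the 3 highest of all 120 in each comparison. At chr11:96055001-96060000 the controls held 6 and 3 reads, PHF20 10 and 11, Wdr5 9 and 13 and Pol II 13 and 14. All 6 ChIP libraries held more reads than either control, the deepest library included. The window was picked for its fold changes and the 3 comparisons share these 2 control counts, so the 3 values are not independent. The log2 fold changes were 0.98 with PHF20, 1.09 with Wdr5 and 1.6 (SE 0.51, adjusted p 0.756) with Pol II, whose mean of 5.32 ± 0.983 CPM (SD, n = 2) compared with 1.32 ± 0.0162 in control.

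The other leading Hoxb windows differed in which target was high. At chr11:96130001-96135000 the controls held 3 and 9 reads, PHF20 18 and 13, Wdr5 6 and 7 and Pol II 15 and 10, with log2 fold changes of 1.14 for PHF20 and 1.15 for Pol II. In CPM the controls stood at 0.652 and 3.98 and PHF20 at 6.18 and 3.60, so PHF20 overlapped control there. Pol II was higher than every other library at chr11:96145001-96150000, with 16 and 11 reads against 4 and 7 in control, 13 and 9 with PHF20 and 9 and 8 with Wdr5 once depth was taken into account (log2 fold change 1.29). Wdr5 was higher than every other library at chr11:96150001-96155000, with 15 and 11 reads against 7 and 4 in control, 8 and 9 with PHF20 and 10 and 5 with Pol II (log2 fold change 1.07). None of the 3 passed the adjusted test, with adjusted p from 0.828 to 1.00. The fullest Hoxb window, chr11:96120001-96125000, held 9 and 6, 19 and 10, 14 and 15 and 7 and 17 reads in the order control, PHF20, Wdr5 and Pol II, and the emptiest, chr11:96035001-96040000, held 8 and 3, 10 and 7, 9 and 8 and 9 and 2.

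In Hoxd the windows that led were at chr2:74580001-74585000 for PHF20 and chr2:74510001-74515000 for Wdr5. The first held 3 and 3 reads in control, 8 and 11 with PHF20, 6 and 7 with Wdr5 and 9 and 5 with Pol II, a log2 fold change of 1.15 (SE 0.52, adjusted p 1.00) for PHF20. The second held 5 and 6 in control, 6 and 11 with PHF20, 12 and 16 with Wdr5 and 13 and 11 with Pol II, a log2 fold change of 1.11 for Wdr5 (adjusted p 0.994) and 1.16 for Pol II (adjusted p 0.850). In CPM, control and Wdr5 did not overlap there, but control replicate 2, at 2.65, came close to Wdr5 replicate 1, at 3.25.

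Only 1 Hoxd window was among the lowest. At chr2:74525001-74530000 the controls held 7 and 8 reads, PHF20 3 and 4, Wdr5 9 and 6 and Pol II 11 and 3, a log2 fold change of -0.81 for PHF20. The fullest window, chr2:74535001-74540000, held 11 and 5, 15 and 13, 10 and 14 and 10 and 6 reads in the order control, PHF20, Wdr5 and Pol II. The emptiest, chr2:74520001-74525000, held 5 and 4, 7 and 6, 8 and 6 and 3 and 4. Full and empty windows thus lay within 20 kb of each other.

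Hoxa had 1 window among the highest, for Pol II, at chr6:52150001-52155000. The controls held 3 and 5 reads, PHF20 9 and 8, Wdr5 11 and 5 and Pol II 11 and 13, a log2 fold change of 1.47 (SE 0.51, adjusted p 0.788). Both Pol II libraries were above all the others in CPM, which averaged 4.75 ± 1.18 with Pol II and 1.43 ± 1.10 in control. It bordered the emptiest window of the cluster, chr6:52145001-52150000, with 12 and 2, 4 and 5, 7 and 5 and 8 and 4 reads in the order control, PHF20, Wdr5 and Pol II.

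The lowest Pol II value in Hoxa was at chr6:52115001-52120000. There the controls held 6 and 4 reads, PHF20 9 and 12, Wdr5 14 and 3 and Pol II 5 and 0, a log2 fold change of -0.79. A count of 0 in Pol II replicate 2 allows up to 3 reads, or 1.29 CPM (counting error only), against 1.78 CPM in replicate 1. The fullest window, chr6:52125001-52130000, held 7 and 15, 9 and 9, 7 and 18 and 5 and 11 reads, so its high total came from replicate 2 of control and of Wdr5 rather than from 1 target.

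Hoxc supplied 7 of the 9 places among the lowest windows. At chr15:102880001-102885000 the controls held 21 and 10 reads, PHF20 7 and 9, Wdr5 7 and 3 and Pol II 10 and 5. Both controls were above all ChIP libraries in CPM there, 4.49 ± 0.0998 (SD, n = 2) against 2.45 ± 0.0611 with PHF20, 1.53 ± 0.522 with Wdr5 and 2.85 ± 0.998 with Pol II. The log2 fold change was -1.26 (SE 0.51, adjusted p 0.994) for Wdr5 and -0.73 for PHF20. It was the one Hox window with Wdr5 below control at an unadjusted p under 0.05.

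The further low Hoxc windows were mostly low in 1 target. For Pol II, chr15:102755001-102760000 held 1 and 2 reads against 14 and 4 in control, 7 and 7 with PHF20 and 9 and 2 with Wdr5 (log2 fold change -1.28, adjusted p 0.845), and chr15:102895001-102900000 held 1 and 4 against 10 and 6, 13 and 10 and 8 and 5 (-0.99). For Wdr5, chr15:102715001-102720000 held 7 and 3 reads against 16 and 7 in control, 8 and 8 with PHF20 and 6 and 14 with Pol II (-0.87), and chr15:102745001-102750000 held 6 and 6 against 15 and 10, 7 and 12 and 15 and 7 (-0.78). For PHF20, chr15:102870001-102875000 held 4 and 4 reads against 8 and 9 in control, 4 and 6 with Wdr5 and 6 and 12 with Pol II (-0.82). Values with as few as 1 or 2 reads carry a large counting error. The fullest Hoxc window, chr15:102830001-102835000, held 10 and 8, 16 and 18, 8 and 11 and 7 and 14 reads in the order control, PHF20, Wdr5 and Pol II, and the emptiest, chr15:102730001-102735000, held 17 and 1, 6 and 5, 7 and 3 and 3 and 1, with the largest number in control replicate 1.

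No 1 kb window of the Hox clusters held many reads at this depth or was dense in both libraries of 1 group alone. In 1 kb windows the most reads in any library were 9, in PHF20 replicate 2 at chr11:96025001-96026000 in Hoxb, where the median window held 2. The maxima were 4 to 8 reads in Hoxa, 6 to 9 in Hoxb, 6 to 8 in Hoxc and 4 to 7 in Hoxd, in the controls as in the ChIP libraries. With a window called dense when both libraries of a group held at least 8 reads and 3 times the CPM of each of the other 6 (0.3 CPM added), 0 of 600 Hox windows were dense for PHF20 (7.91e-05% of all 2528861 windows), Wdr5 (0.000514%), Pol II (0%) or control (0%). Binding that adds fewer reads than that would not be called by this rule. The rule cannot call a window that is dense for more than 1 target, and it called few windows anywhere. The 0 of 600 therefore does not decide whether Hox promoters were bound, and start sites were not located on mm9.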

How the data were processed

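The deposited files give the position of each aligned read on mm9 (chromosome, start and end, 1 file per library, no strand), as the authors deposited them. Every interval was 44 bp long. CASAVA 1.6, FastQC and Bowtie 0.12.7 are named per the submitters' processing notes, with no settings.

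Reads with the same start were counted once and assigned to windows by their midpoint, 22 bp from the start. Library size for CPM was the number of these reads on the 19 autosomes and X, 2260567 to 4600398 per library, which left 0 to 22 reads per 5 kb Hox window and limits the precision. Windows of 5 kb (mean of at least 3 reads) and bins of 100 kb (at least 20) were fitted with limma-trend (limma 3.58.1, R 4.3.3) on log2 CPM with a prior count of 2, all 8 libraries together, 1 mean for each group (4 residual degrees of freedom), and Benjamini-Hochberg adjustment over all windows or bins. The ratio of a bin to 500 kb on either side was fitted with limma in the same way, but without the trend. In these fits the spread used for a window is drawn towards that of the other windows. At 5 kb the SE changed little with the replicates of the window itself. It was 0.51 for chr11:96055001-96060000 (control SD 0.0162 CPM) and 0.58 for chr15:102730001-102735000 (control SD 2.3 CPM). Python 3.11.15 with numpy 2.4.6, pandas 2.3.3, scipy 1.17.1 and matplotlib 3.10.9 did the rest. The fits and intervals were also run on simulated reads that varied by counting error alone. Those runs do not cover the spread between libraries seen here.

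Named windows were the 3 highest and 3 lowest by log2 fold change in each comparison and the fullest and emptiest of each cluster. Members and lists were chosen with earlier results of these data known. Several descriptions were added after a first look at the cluster counts: windows outside both controls, ranks and counts of bins, the spread of bins per library, the 50 kb profile, the 1 kb count, and the promoter CpG, TATAAA and printed promoters. Planned counts at start sites, for Hox genes and for lists of cofactors, chromatin regulators, active promoters and cell type markers, need an mm9 annotation and were not run, so the labelled cell type was not checked. Coordinates are 1-based; sequences are from RefSeq on GRCm38.p6 and were not joined to reads.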

Additional observations from a re-analysis of the deposited data

How the results depend on the processing

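The count of called Hox windows or bins was 0 in all 3 comparisons under every alternative run for the 5 kb windows and the ratios to flanks. For 100 kb bins it was 0 except without control replicate 2, which leaves control replicate 1 alone. The Hoxb bin chr11:96100001-96200000 was then called for Wdr5 (log2 fold change 0.76) and Pol II (0.94), as were bins across the genome. Without control replicate 1 that bin stood at -0.13 and 0.05. The genome-wide calls at 5 kb were 1, 0 and 4 for PHF20, Wdr5 and Pol II and ranged over single-library omissions from 1 to 13, 0 to 176 and 0 to 178, and over other settings from 1 to 2, 0 to 32 and 0 to 22. In bins PHF20 had up to 1 call without control replicate 2, and its ratio to flanks up to 1 under other settings. The cause was not tested.

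With the replicate number as a block (replicate block), 0 Hox windows or bins were called, and 1, 0 and 4 windows and 0 bins genome-wide. Same-numbered libraries did not deviate together in every pair (correlations of the replicate differences over 25648 bins from -0.67 to 0.82), so the numbers were not taken as pairs.

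Of 1539 values of single windows and bins under alternatives, 107 changed sign, none of them past the threshold in either setting. Of these, 29 arose without control replicate 1 (102 values) and 19 with the other 6 libraries as reference. The median ratio to flanks over other settings ran from 1.16 to 1.27 at Hoxa, 1.01 to 1.11 at Hoxb, 0.947 to 0.989 at Hoxc and 1.19 to 1.33 at Hoxd. With ranges widened by 50 kb, the Pol II mean at Hoxb was 0.989 and the PHF20 mean at Hoxc 1.01. At 1 kb, 11 Hox windows passed the read filter. Omitting a library leaves its group with 1, assumed to vary like the others. Comparisons at promoters were not run.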
